A study of Mus musculus with 2 samples.

Results

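The primary granule genes of granulocyte progenitors were taken as Mpo, Elane, Prtn3, Ctsg, Ms4a3, Gfi1 and Csf3r, 7 of the 20659 genes that the array names, and were represented by every non-control probe whose transcript accession belongs to them, 7 of 39429 probes. Each gene had 1 probe, printed as 1 spot. Mpo, Elane, Prtn3 and Ctsg encode enzymes of the granule, whereas Ms4a3, Gfi1 and Csf3r encode a membrane protein, a repressor and a receptor. The 7 are called primary granule genes for short. The samples were blood cells of mouse fetal liver at E13.5, sorted on SoNar, a genetically encoded fluorescent sensor of the NADH/NAD+ state, by the ratio of its fluorescence with violet to that with blue excitation. SoNar-high cells (strain labelled C57BL/6) were set against SoNar-low cells (strain labelled C57BL), with 1 array per group, and the comparison asks which genes differ between cells of a high and of a low sensor ratio. The number of embryos behind each sort and the way the sensor was expressed are not given in the sources used here.

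With 1 array per group there were no replicates and no test, so no p-value is given and 2-fold served as a fixed size for calling a gene higher or lower. Each array was scaled to its own 75th percentile, and a difference is the scaled log2 signal of the SoNar-high array minus that of the SoNar-low array. Errors are those the scanner software gives for a spot, which leave out differences between animals, sorts and labelling reactions. Of 43020 non-control spots, 49.4% for SoNar-high cells and 42.4% for SoNar-low cells were well above background, and none was saturated. SoNar-high cells had 540 genes at 2-fold or more above SoNar-low cells and 454 at 2-fold or more below, out of 10223 that both arrays measured, and the median difference was -0.082. When detected probes alone set the scaling, the median over all genes shifted by 0.18, with 817 above and 227 below, and after a loess fit on signal it shifted by 0.10, with 649 above and 347 below. Ptprc, the pan-leukocyte antigen, had a signal of 1079 in SoNar-high and 922.5 units in SoNar-low cells, and the globin gene Hba-a1 had 36424 in SoNar-high and 23134 units in SoNar-low cells. Afp, a product of hepatoblasts rather than of blood cells, was also measured, at 5219 in SoNar-high and 2343 units in SoNar-low cells.

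Neutrophils build their granules in sequence. Primary (azurophil) granules form first, in promyelocytes, and hold myeloperoxidase and serine proteases, whereas secondary and tertiary granule proteins are made later, after the primary granule genes are switched off. Fetal liver is the main site of blood formation at mid-gestation, where granulocyte progenitors lie among a large excess of erythroid cells.

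All 7 genes were well above background on both arrays and all 7 differed by less than 2-fold. None was at least 2-fold higher, a size that 5.28% of all measured genes reached, and none was at least 2-fold lower, which 4.44% reached. With so few genes, counts of 0 are near what those shares give. The median difference of the 7 genes was 0.0009, against -0.082 for all measured genes. The 4 genes above 0 were the granule enzyme genes Mpo, Elane, Prtn3 and Ctsg, and the 3 below were Ms4a3, Gfi1 and Csf3r. Mpo, Prtn3, Ctsg and Gfi1 were closer to 0 than their scanner errors. Elane, at 0.67, lay above the upper quartile of all genes (0.32), Ms4a3, at -0.48, lay below the lower quartile (-0.45), and the other 5 lay between them. In sorted bulk samples such as these, fewer cells of a type and less RNA per cell cannot be told apart.

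**Figure D1:**
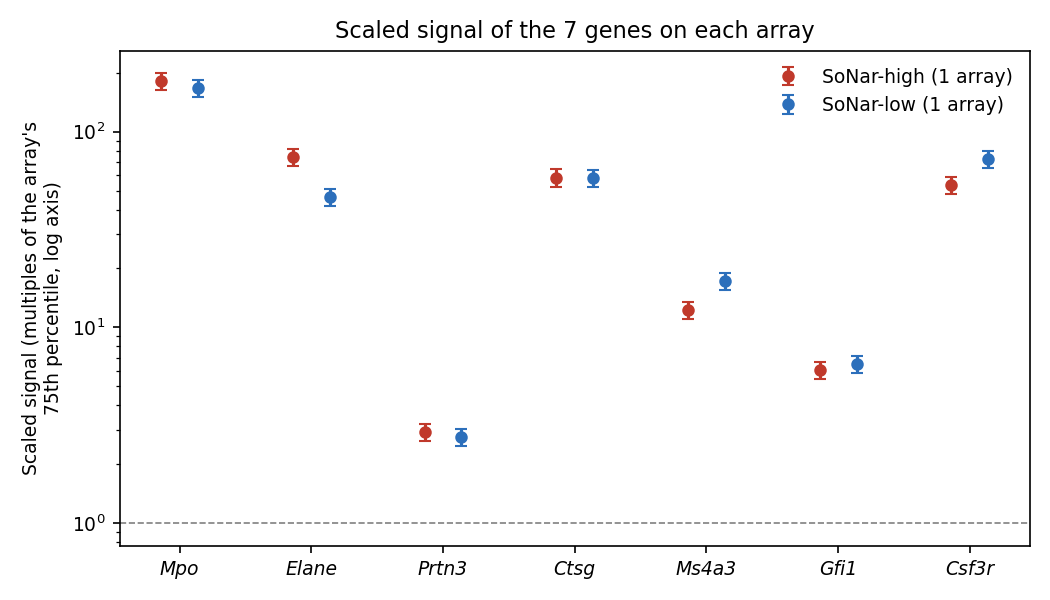
Scaled signal (multiples of each array's 75th percentile, log axis) of the 7 primary granule genes on the SoNar-high array (left point of each pair) and the SoNar-low array (right point); bars are the scanner's error for the spot and the dashed line marks the 75th percentile. The error bars of Elane, Ms4a3 and Csf3r do not overlap between the arrays, with Elane higher in SoNar-high cells and Ms4a3 and Csf3r lower.

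Mpo encodes myeloperoxidase, the heme enzyme that makes hypochlorous acid from hydrogen peroxide and chloride. Its processed signal was 33689 ± 3369 units in SoNar-high cells and 37194 ± 3720 units in SoNar-low cells (scanner error), and once scaled it was 180.6 times the 75th percentile of the SoNar-high array and 167.4 times that of the SoNar-low array. The difference of 0.11 (scanner error 0.20) was smaller than its error and than the SD of a difference between spots of the same probe, 0.15. By nearness of the 2 scaled log2 signals, over these 2 arrays, the genes closest to Mpo were the ribosomal protein genes Rps27a, Rps29 and Rps14, with Glrx2 (glutaredoxin 2) and Tmsb4x (thymosin beta 4), at distances of 0.038 to 0.11. With only 2 arrays, nearness of this kind says little beyond a like signal.

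The 3 serine proteases are close relatives that are stored active in the granule, after cathepsin C has removed a dipeptide from their N-terminus. Elane, neutrophil elastase, had 13765 ± 1376 units in SoNar-high and 10319 ± 1032 units in SoNar-low cells. It was the only one of the 7 genes whose unscaled signal was higher on the SoNar-high array, and its difference was 0.67 (scanner error 0.20), or 1.59-fold. Prtn3, proteinase 3, had 544.0 ± 54.8 units in SoNar-high and 612.0 ± 61.9 units in SoNar-low cells, a difference of 0.083 (0.21). Ctsg, cathepsin G, had 10862 ± 1086 units in SoNar-high and 12934 ± 1293 units in SoNar-low cells, and after scaling its 2 values were alike, at 58.2 times the 75th percentile on each array. The gap between the differences of Elane and Prtn3 was 0.59, just over 2 combined scanner errors of 0.29, and that between Elane and Ctsg was 0.67. Neither gap exceeded that limit after normexp, and the gap between Elane and Prtn3 did not exceed it after loess either.

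Elane and Prtn3 are neighbours on chromosome 10, with no other protein-coding gene between them, so the 250 bases before each start are shown, with those of Mpo and Ctsg, from RefSeq (GRCm38.p6). Capitals mark AGGAAGT, a core recognised by PU.1 and other ETS factors, and CAACGG, a core recognised by MYB, which do not overlap in these windows.
Elane (GRCm38.p6 chr10:79886062-79886311, + strand): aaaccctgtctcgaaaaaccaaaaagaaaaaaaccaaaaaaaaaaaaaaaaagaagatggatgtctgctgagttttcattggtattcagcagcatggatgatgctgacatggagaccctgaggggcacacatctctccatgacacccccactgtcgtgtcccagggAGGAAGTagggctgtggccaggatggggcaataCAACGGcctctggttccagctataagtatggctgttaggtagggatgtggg
Prtn3 (GRCm38.p6 chr10:79879417-79879666, + strand): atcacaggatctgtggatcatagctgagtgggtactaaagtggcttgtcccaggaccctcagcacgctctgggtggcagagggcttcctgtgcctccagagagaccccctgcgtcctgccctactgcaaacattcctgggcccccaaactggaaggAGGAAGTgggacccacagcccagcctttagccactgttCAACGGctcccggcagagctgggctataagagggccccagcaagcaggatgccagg
Mpo (GRCm38.p6 chr11:87793534-87793783, + strand): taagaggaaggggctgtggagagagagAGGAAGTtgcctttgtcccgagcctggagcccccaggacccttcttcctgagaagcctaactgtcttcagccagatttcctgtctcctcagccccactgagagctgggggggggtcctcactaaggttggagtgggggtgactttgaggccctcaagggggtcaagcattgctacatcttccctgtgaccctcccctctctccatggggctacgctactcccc
Ctsg (GRCm38.p6 chr14:56102575-56102824, - strand): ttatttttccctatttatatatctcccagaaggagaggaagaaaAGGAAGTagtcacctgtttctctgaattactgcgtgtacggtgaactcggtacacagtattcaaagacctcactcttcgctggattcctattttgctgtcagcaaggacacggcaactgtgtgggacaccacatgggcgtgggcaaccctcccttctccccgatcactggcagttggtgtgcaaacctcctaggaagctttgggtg

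AGGAAGT stood in the windows of all 4 granule enzyme genes, 84 bases before the start in Elane, 94 in Prtn3, 223 in Mpo and 206 in Ctsg, and in none of Ms4a3, Gfi1 and Csf3r. Searched on both strands, it occurred in 7.69% of 32851 promoter windows of the same 250 bases. CAACGG stood 51 bases before the start in Elane and 56 in Prtn3, and occurred in 4.05% of windows, so that both motifs have the same order and nearly the same place in these neighbours. The RUNX core TGTGGT was found in Ctsg alone among the 7 genes (14.05% of windows) and the C/EBP core TTGCNNAA in Gfi1 alone (9.56%). The letters searched were chosen after the windows had been read, and a match is a description of sequence, not a site in these cells.

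Neighbours of the protease genes differed in how they were measured. Of the 12 protein-coding genes nearest to the Prtn3 and Elane pair (6 on each side), 7 were measured on both arrays, with differences of -0.64 to 0.82 and none at 2-fold. A further one, R3hdm4, was detected in SoNar-high cells only, at least 2.28-fold higher. Among them Prss57, a further serine protease of neutrophil granules, had 0.14. Ctsg lies on chromosome 14 in the cluster of mast cell protease and granzyme genes, where 8 of its 12 nearest genes were well above background on neither array. Mcpt8, a basophil protease gene next to Ctsg, had 123.8 units in SoNar-high and 692.2 units in SoNar-low cells, a difference of -2.23, against 0.0009 for Ctsg.

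Ms4a3 encodes a membrane protein with 4 transmembrane segments that marks granulocyte-monocyte progenitors. It had 2298 ± 230 units in SoNar-high and 3823 ± 382 units in SoNar-low cells, a difference of -0.48 (scanner error 0.20), so SoNar-low cells were 1.40-fold above SoNar-high cells. Csf3r, the receptor for granulocyte colony-stimulating factor, had 9984 ± 998 units in SoNar-high and 16120 ± 1612 units in SoNar-low cells, a difference of -0.44 (0.20), with SoNar-low cells 1.36-fold above. Both genes lay below 0 under all 9 other settings tried, Ms4a3 between -0.59 and -0.26 and Csf3r between -0.88 and -0.26. Gfi1, a zinc-finger repressor needed for neutrophil production that lymphoid and stem cells also use, had 1134 ± 114 units in SoNar-high and 1441 ± 144 units in SoNar-low cells. Its difference of -0.093 (0.20) changed sign under 5 of the 9 settings, up to 0.12. Of the 9 settings, the 2 other filters and the median over probes cannot move genes such as these, with 1 bright probe each. Beside Gfi1, 6 of 10 measured B lymphoid markers and 3 of 9 measured stem and multipotent progenitor markers were at least 2-fold lower in SoNar-high cells, and their part in its value was not tested.

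Set against each other, 6 of the 21 pairs among the 7 genes had differences further apart than 2 combined scanner errors. That limit holds only the error the scanner software assigns to a spot. Elane was in 5 of the 6 pairs, against Ms4a3, Csf3r, Gfi1, Ctsg and Prtn3, and Mpo against Ms4a3 was the other. The widest gap, 1.15 between Elane and Ms4a3, is one of differences and not of levels. The other 15 pairs, among them Csf3r against Ms4a3 (0.044) and Mpo against Prtn3 (0.027), were closer than the limit. The scanner error was a nearly fixed share of the signal for these genes, so combined errors ran only from 0.2885 to 0.2901. The limit was thus nearly the same size for every pair, and not a spread observed for it. The pairs changed most with the normexp setting, after which 10 pairs were beyond the limit, 3 of them among those 6. Elane was in 2 of these 10 pairs, and Ms4a3 and Csf3r in 5 each. Since normexp was run on median spot signals, it differs from the main setting in more than its background correction. Which of these changes moved the pairs was not tested. Under the other 8 settings 6 pairs were beyond the limit each time, with Elane in 5 or 6. Most of these settings could not change a gap. The scalings on detected probes shift all genes alike, and the filters and the median over probes leave these 1-probe genes as they were. Of the rest, quantile normalization and the deposited table, with nearly the same values, each kept 5 of the 6 pairs, and loess kept 4. Measured from the median of all genes, Elane stood at 0.75 (0.45 to 0.87 over the other settings), Ms4a3 at -0.40 (-0.53 to -0.25) and Csf3r at -0.36 (-0.83 to -0.27).

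**Figure D2:**
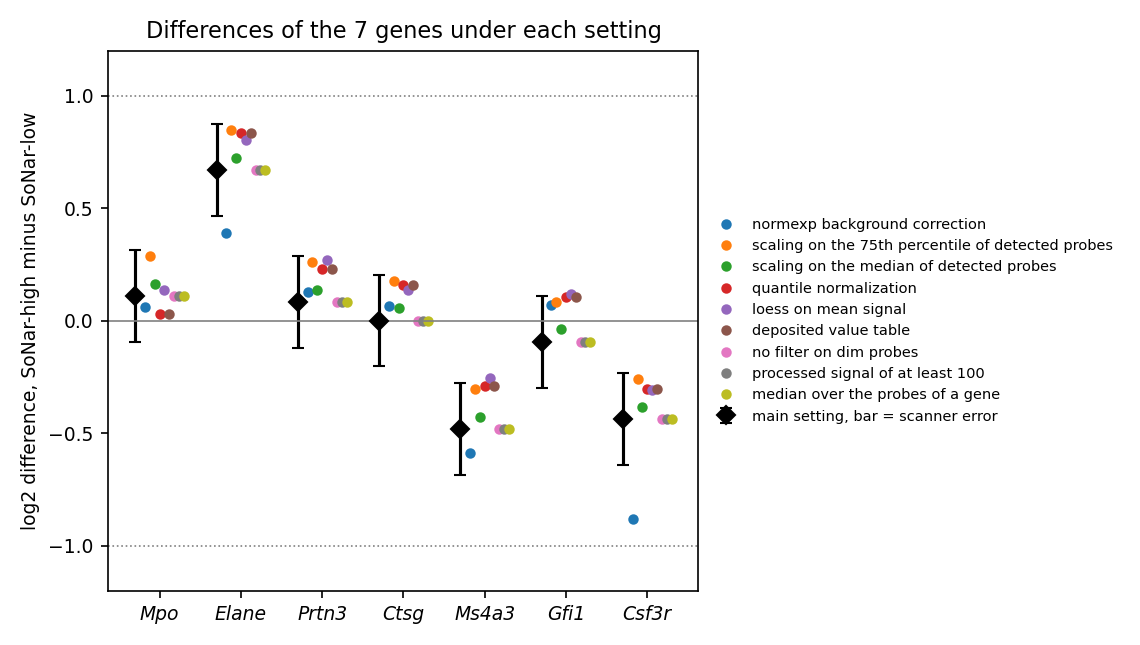
log2 difference, SoNar-high minus SoNar-low, of the 7 genes (1 probe each) in the main setting (diamond, bar showing the scanner error) and under 9 other settings (coloured points); dotted lines mark 2-fold. No gene passes 2-fold in any setting, Elane stays above 0, Ms4a3 and Csf3r stay below 0, and Gfi1 changes sign with the setting.

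Later granule genes were mostly above 0 in the same difference, 26 of those measured on both arrays. Of 29 listed secondary granule and late neutrophil genes, 28 had a probe and 27 were measured on both arrays, and of these 16 were at least 2-fold higher in SoNar-high cells and the other 11 within 2-fold. The median was 1.11. Mmp9, the gelatinase of tertiary granules, had 1942 units in SoNar-high and 239.6 units in SoNar-low cells, a difference of 3.27. Fpr1, the formyl peptide receptor of mature neutrophils, had 958.4 in SoNar-high and 195.0 units in SoNar-low cells (2.55), and Mmp8, the collagenase of secondary granules, had 2926 in SoNar-high and 633.2 units in SoNar-low cells (2.46). S100a9, a subunit of calprotectin, had 43917 in SoNar-high and 38631 units in SoNar-low cells, a difference of 0.44. Among secondary granule proteins, lactoferrin (Ltf) had 1.07 and the cathelicidin gene Camp 0.52 (0.69 on a further probe), whereas Ngp was below 0, at -0.19.

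Elane, the highest of the 7 genes in this difference, was below 23 of the 27 measured later genes. Among bright genes the later ones did not all lie above Elane. Mpo, Elane, Ctsg and Csf3r had mean scaled signals of 5.86 to 7.44 (log2), and the 5 later genes in the same band (Ltf, S100a8, Chil3, Hp and Stfa2) had differences of 0.78 to 1.07, each above all 4 of those genes. Camp and S100a9, brighter than that band, lay below Elane, at 0.52 and 0.44. The band was chosen after the values were seen. The later list's count of genes at least 2-fold higher was 14 to 20 over the 9 other settings, and 8 genes were at least 3-fold higher. No test of the difference between the lists was possible with 1 array per group. Most macrophage genes moved the same way as the later neutrophil genes. Of 13 measured monocyte and macrophage markers, 8 were at least 2-fold higher and none was lower by that size, with a median of 2.17. Their summed scaled signal was 145.0 in SoNar-high against 73.6 in SoNar-low cells. The list was not uniform, with 11 markers above 0 and 2 below. Ccr2 and Ly86 were at -0.61 and -0.56, and the brightest, Csf1r, had 0.18 on its brightest probe. The 3 probes of Csf1r disagreed, running from -0.088 to 1.02. Hepatoblast markers also rose, with 5 of 9 measured at least 2-fold higher, 1 below 0 and a median of 1.42. The part of macrophages in the later list, some of whose genes they share, was not tested, nor was that of hepatoblasts.

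**Figure D3:**
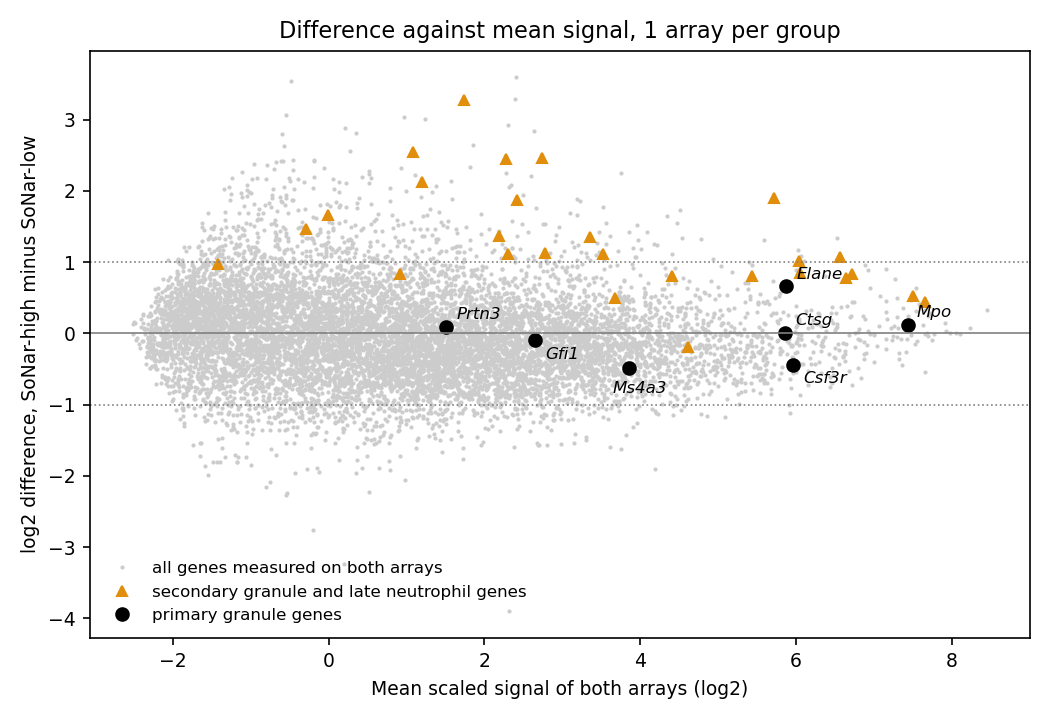
log2 difference, SoNar-high minus SoNar-low, against mean scaled signal (log2) for the genes measured on both arrays (grey), with the 7 primary granule genes (black circles, named) and the secondary granule and late neutrophil genes (orange triangles); dotted lines mark 2-fold. The black circles lie between -0.48 and 0.67, while 16 of 27 triangles lie above the upper dotted line.

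Among other genes of primary granule assembly, the share within 2-fold was near that of all measured genes, 90.28%. Of 20 listed cargo, processing and inhibitor genes, 18 were measured, of which 2 were at least 2-fold higher, none was lower and 16 were within 2-fold, with a median of 0.18. The 2 genes at least 2-fold higher encode protease inhibitors. Slpi, the secretory leukocyte protease inhibitor that blocks elastase and cathepsin G, had 4929 in SoNar-high and 2044 units in SoNar-low cells (1.52). Serpinb6a, an intracellular serpin, had 448.5 in SoNar-high and 217.2 units in SoNar-low cells (1.30, and 0.99 after normexp background correction, just under 2-fold). Serpinb1a, the main intracellular inhibitor of the neutrophil serine proteases, had 0.62. Cst7, which encodes a further protease inhibitor, went the other way, at -0.32. Ctsc, the cathepsin C that activates the proteases, had -0.39, Srgn, the serglycin core protein that holds them in the granule, had -0.18, and Rab38, a GTPase of granule biogenesis, had -0.95.

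Transcription factors of the granulocyte lineage went both ways, with 9 above 0 and 18 below in the main setting. Of 28 listed, 27 were measured, of which 1 was at least 2-fold higher and 2 were at least 2-fold lower. The other 24 did not reach 2-fold, a share near the 90.28% of all measured genes. The median was -0.14, against -0.082 for all measured genes, and turned positive (up to 0.082) under 4 of the 9 other settings. Spi1, the gene of PU.1, had 121.9 in SoNar-high and 66.4 units in SoNar-low cells, on a dim probe. Its difference of 1.13 (scanner error 0.28) was 0.58 after normexp. Myb, the gene of MYB, had 3608 in SoNar-high and 8055.5 units in SoNar-low cells, a difference of -0.91. Irf8, the factor that directs progenitors to monocytes rather than granulocytes, had 1079 in SoNar-high and 2971 units in SoNar-low cells (-1.21), and Id2, an inhibitor of basic helix-loop-helix factors that Gfi1 is known to repress, had 698.2 in SoNar-high and 2144 units in SoNar-low cells (-1.37). Cebpe, the C/EBP factor of secondary granule formation, had 0.86, against -0.83 for Cebpa, which acts earlier and whose probe was dim (48.9 units in SoNar-high cells), and 0.32 for Cebpb.

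Receptors and signalling genes around Csf3r were within 2-fold about as often as all measured genes (90.28%). Of 26 listed, 24 were measured, none at least 2-fold higher and 1 lower by that size. The other 23 were within 2-fold, and the median was 0.10. The lower one, Il3ra, the alpha chain of the interleukin-3 receptor, had 141.3 in SoNar-high and 374.5 units in SoNar-low cells (-1.15, and -0.78 after normexp). Csf3, the ligand gene of Csf3r, was not well above background on either array. Il6st, the shared receptor chain gp130, had 0.87 and the kinases Jak1 and Tyk2 had 0.67 and 0.76. The transcription factor Stat3, the main effector of the receptor, had 0.40, and its feedback inhibitor Socs3 had -0.012. The probes of Stat5b disagreed, at -0.17 for the brighter and 1.07 for the other. Csf2ra and Csf2rb, chains of the related receptor for granulocyte-macrophage colony-stimulating factor, had 0.43 and 0.25, where Csf3r itself had -0.44.

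Elane, Gfi1 and Csf3r are mutated in forms of severe congenital neutropenia in humans. Of 23 further genes of inherited neutropenia, 20 were measured, and all 20 were within 2-fold, near the 90.28% of all measured genes, with a median of -0.35. Sbds, a ribosome maturation factor, had -0.88, Gata2 -0.82, Tcirg1 0.68 and Was 0.48. The mitochondrial protein gene Hax1 had 0.011.

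Surface markers of granulocyte-monocyte progenitors were split. Of 14 listed, 12 were measured, with 3 at least 2-fold higher, 1 at least 2-fold lower and a median of -0.015 that was positive under 6 of the 9 other settings. Cd33, Fcgr3 and Ly6c1 were the higher ones, at 1.57, 1.30 and 1.09 (a further probe of Ly6c1 gave 0.69), and all are also carried by more mature myeloid cells. Cd34, an antigen of immature progenitors, was the lower one, at -1.02, with a further probe at -0.39. Il1r1 was detected above background in SoNar-high cells only, at least 2.80-fold higher (87.2 in SoNar-high and 29.2 units in SoNar-low cells), in a class where 12.5% of genes had a bound of at least 2-fold. Among genes well above background on the SoNar-low array only, that share was 22.4%, and the one such gene on the granulocyte lists, the transcription factor Egr2, had a bound under 2-fold.

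**Figure D4:**
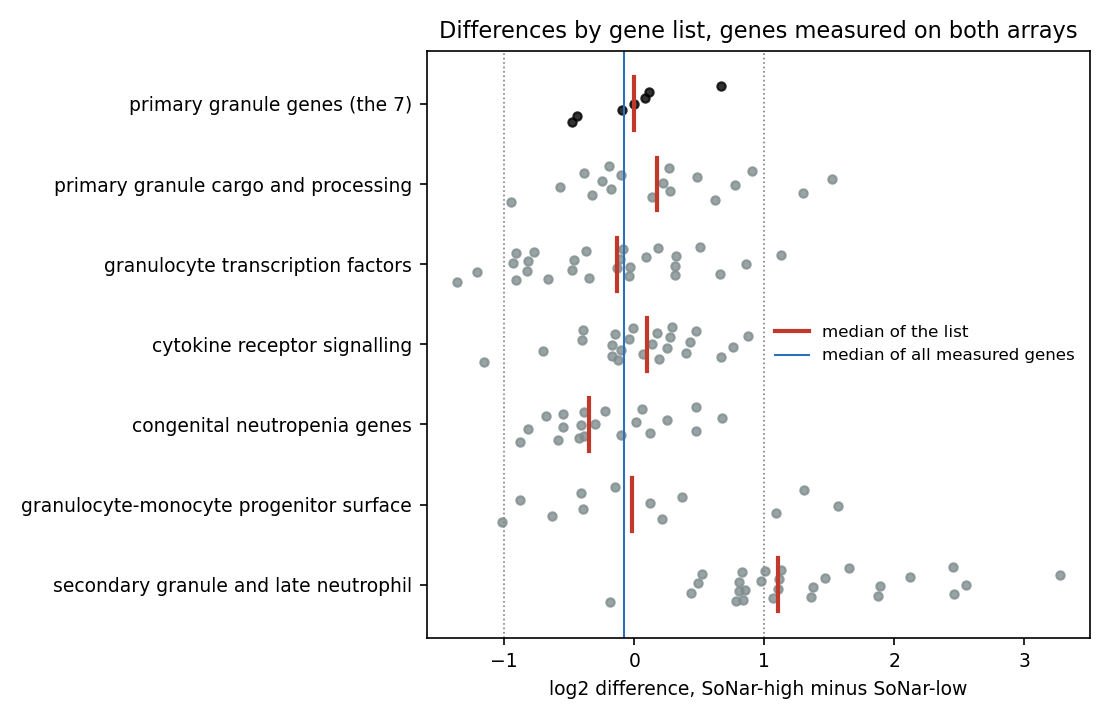
log2 difference, SoNar-high minus SoNar-low, of each gene measured on both arrays (points) by gene list, with the list median (red), the median of all measured genes (blue line) and 2-fold (dotted). The 7 primary granule genes lie around 0 (median 0.0009), and the secondary granule and late neutrophil genes around 1.11; the medians of the transcription factor list and of the progenitor surface list change sign under some settings.

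Markers of other cell types moved in both directions between the same arrays. Of 11 measured erythroid markers, 7 were at least 2-fold higher in SoNar-high cells and none was lower, with a summed scaled signal of 291.4 in SoNar-high against 146.8 in SoNar-low cells. Natural killer and T markers had 4 of 5 measured genes at least 2-fold lower, led by Gzma (240.6 in SoNar-high and 4279 units in SoNar-low cells, -3.90). The CD3 chains of the T cell receptor complex did not share a direction: Cd3e had 0.87, Cd3d was at least 2.44-fold higher and Cd3g at least 2.18-fold lower, the last 2 detected on 1 array each. Markers of mast, basophil and eosinophil cells showed a median of 0.12, with 1 of 10 measured genes at least 2-fold higher and 1 lower, and 3 of its markers (Ms4a2, Fcer1a and Mcpt1) were well above background on neither array. The summed scaled signal of the 7 primary granule genes was 387.5 in SoNar-high against 371.0 in SoNar-low cells. The part of these cell types in the values of the 7 genes was not tested.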

How the data were processed

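Per the labels' protocols, total RNA of the sorted cells was Cy3-labelled for 1-colour arrays. The authors deposited spot intensities from the Agilent scanner software, background-subtracted per the file headers, which name Feature Extraction version 11.0.1.1 where the submitters' processing notes name 9.1. The deposited value table holds log2 values of unstated normalization and served as an alternative.

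Control spots and outlier spots (225 for SoNar-high cells, 135 for SoNar-low cells) were left out. The log2 of the processed intensity minus the array's 75th percentile was averaged over spots of a probe. A probe counted as measured if most spots passed the scanner's above-background flag on each array, and a gene was represented by its brightest measured probe. Probes were named through transcript accessions in a RefSeq table (GRCm38.p6, names and neighbours only, since the array design refers to mm9): 27234 matched 1 gene and 12195 none. A gene well above background on 1 array only was given a bound, taken against its own dim value or the lowest detected value of that array, whichever was higher.

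Named genes were all 7 members, in each list the brightest gene and the 3 of largest absolute difference, one-array genes whose bound reached 2-fold, and the 5 nearest Mpo, with some left out for length. Other genes were named for their role after their values were seen. The 7 genes and the lists were chosen with earlier results of these data known. The alternatives were normexp (limma 3.58.1, offset 50, on median spot signals), 4 other scalings, the deposited table, 2 other filters, the median over probes and a 3-fold size. A shift of a difference was counted where it exceeded 0.15, the SD of a difference between spots of 213 probes printed 10 times. In a simulation on 10223 genes, 200 were given changes well past 2-fold, with noise of spot size only (SD 0.15). The 2-fold rule recovered 100% of the 200 changed genes, an outcome that those sizes nearly fix. It does not bear on smaller differences, such as those of the 7 genes, or on variation between sorts.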

Additional observations from a re-analysis of the deposited data

How the results depend on the processing

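None of the 7 genes reached 2-fold in either direction under any of the 9 other settings. The 2 other filters and the median over probes could not move them, since each has 1 probe, well above background and above 100 units. Quantile normalization and the deposited table gave nearly the same values for the 7 genes, so they are hardly separate checks. Settings moved single values by more than the spot-to-spot spread. With the 75th percentile of detected probes, Mpo had 0.29, Elane 0.85, Prtn3 0.26, Ctsg 0.18, Ms4a3 -0.30, Gfi1 0.085 and Csf3r -0.26, the median of the 7 was 0.18, and the list medians were 0.36 (cargo and processing), 0.0415 (transcription factors), 0.28 (cytokine receptor signalling), -0.17 (neutropenia), 1.29 (secondary granule) and 0.16 (progenitor surface). With quantile normalization Elane had 0.83, Prtn3 0.23, Ctsg 0.16, Ms4a3 -0.29 and Gfi1 0.10, with medians of 0.038 (transcription factors), 1.28 (secondary granule) and 0.17 (progenitor surface). The deposited table gave Elane 0.83, Prtn3 0.23, Ctsg 0.16, Ms4a3 -0.29 and Gfi1 0.10, and medians of 0.040, 1.28 and 0.18 for the same lists. With loess Prtn3 had 0.27, Ms4a3 -0.26 and Gfi1 0.12, and the medians were 0.082 (transcription factors), -0.19 (neutropenia), 1.33 (secondary granule) and 0.20 (progenitor surface). After normexp Elane had 0.39, Gfi1 0.071 and Csf3r -0.88. Apart from the shift of all genes by the scalings, the causes were not tested. Over all genes, 251 were at least 2-fold higher and 257 lower after normexp. With dim probes kept, 2476 were higher and 659 lower, and with signals of at least 100, 329 were higher and 314 lower. At 3-fold, 146 were higher and 48 lower. Each member rests on 1 spot per array, so its precision is that of the spot, and dim probes such as Spi1 and Cebpa are limited by background. No paired analysis was possible because there was 1 array per group.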
